A study of Mus musculus with 6 samples.

Results

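Mecom and 8 further genes of transcription regulators (Prdm16, Meis1, Meis2, Sox2, Npas3, Wwtr1, Zfpm2 and Bnc2) were described in single-nucleus RNA sequencing of mouse tumors. They are 9 of the 22623 genes counted and were matched by symbol in all 6 libraries. They were chosen by their counts in earlier results of these data, which placed them among the genes of the tumor cells, so their level in tumor nuclei is a description and carries no test. Tumors were grown from TC1 cells, a mouse lung epithelial tumor line, placed under the skin of the lower right flank for 24 days. All hosts were male MCT2 loxP/loxP; Cre+ mice on a C57BL/6 background, in which tamoxifen activates a systemic Cre. At 8 weeks of age the KO mice received tamoxifen for 5 days and the CO mice received the vehicle alone, so deletion of MCT2 (Slc16a7, a monocarboxylate transporter) and tamoxifen itself cannot be told apart. The labels give the tissue as lung, whereas the nuclei came from the whole subcutaneous tumor, with 3 libraries per group.

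Transcription factors of this kind bind DNA or partner proteins and set which lineage genes a cell can use. Mecom (also EVI1) and Prdm16 are related PR-domain zinc finger proteins known from blood stem cells, leukemia and arterial endothelium. Meis1 and Meis2 are homeodomain partners of HOX proteins, Sox2 is a pluripotency and foregut factor, and Npas3 is a bHLH-PAS factor best known from neurons. Wwtr1 (TAZ) is the co-activator that the Hippo pathway holds outside the nucleus and that acts through TEAD proteins. Zfpm2 (FOG2) binds GATA factors in the developing heart and gonad, and Bnc2 is a zinc finger protein of fibroblasts and other mesenchyme.

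Of the 9 genes, 8 span long genomic intervals of GRCm38 (GENCODE vM21). Mecom (ENSMUSG00000027684) lies at chr3:29951296-30548008 on the minus strand, a span of 597 kb. Npas3 (chr12:53248677-54072175), Zfpm2 (chr15:40655035-41104592) and Bnc2 (chr4:84275095-84675275) span 823, 450 and 400.2 kb, and Prdm16 (chr4:154316125-154636873) spans 321 kb. Meis2 (chr2:115863064-116065839), Meis1 (chr11:18879817-19018985) and Wwtr1 (chr3:57455649-57575910) span 203, 139 and 120 kb. Sox2 (chr3:34650405-34652461) is a gene of 1 exon and 2.06 kb that lies inside Sox2ot on the same strand, and Sox2ot was not analysed here. Mecom, Meis1, Zfpm2 and Bnc2 also overlap 5, 3, 3 and 1 other annotated genes on their own strand. Reads of a shared strand and position cannot be divided between such genes, which limits these counts.

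Promoter sequences are shown for Mecom, on which most of the values below turn, for Sox2, whose tumor-like levels ran against those of Mecom between libraries, and for Wwtr1, whose protein partners bind a motif found there. The sequences are from RefSeq (GRCm38.p6), 80 bases each, written 5′ to 3′ on the strand of the gene. Capitals mark a match to TGACAG, the core of the MEIS motif, or to GGAATG, the core of the TEAD motif, on either strand.
Mecom, distal start site, chr3:30509760-30509839, minus strand: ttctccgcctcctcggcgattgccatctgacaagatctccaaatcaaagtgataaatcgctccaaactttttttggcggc
Mecom, proximal start site, chr3:30013249-30013328, minus strand: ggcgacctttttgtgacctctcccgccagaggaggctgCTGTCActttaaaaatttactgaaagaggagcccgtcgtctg
Sox2, chr3:34649915-34649994, plus strand: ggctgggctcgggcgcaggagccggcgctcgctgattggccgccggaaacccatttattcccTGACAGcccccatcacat
Wwtr1, chr3:57576005-57576084, minus strand: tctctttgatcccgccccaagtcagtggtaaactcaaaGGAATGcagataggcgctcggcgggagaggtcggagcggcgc

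RefSeq entries matched 8 of the 9 genes, with 2 start sites each for Mecom and Wwtr1. Zfpm2 had no entry. In the 250 bases before each start, TGACAG or its reverse complement occurred for Mecom (proximal start) and Sox2, against 15.9% of 32851 promoters. GGAATG occurred for Wwtr1 and Prdm16 (12.6% of promoters) and CCGGAAGT, an ETS motif, for Meis1 (2.88%). AGATAA, the GATA motif, matched none of the 8 genes and 9.99% of promoters. None of these motifs contains another, the TEAD and ETS motifs have the letters GGAA in common, and a match describes the letters of the window.

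In all, 18865 barcodes were deposited, of which 17493 were kept as nuclei, and a library held 13252572 to 22057084 UMIs (unique molecular identifiers, the counted molecules). Pairs of libraries shared 19 to 25 barcodes, at most 1.12% of the smaller library. Slc16a7 was measured at 8.38, 11.6 and 21.4 CPM (UMIs scaled to the same total in every class and library) over all nuclei of CO replicates 1, 2 and 3 and at 15.3, 7.0 and 31.1 CPM in KO replicates 1, 2 and 3. Its transcript over all nuclei was thus not lower in the KO group, and CO and KO below name the libraries labelled so. Tumor-like nuclei held 56515828 of the 79532598 UMIs, and the deletion was made in the host and not in the TC1 cells. The level over all nuclei therefore does not show whether MCT2 was deleted in host cells. The tumor-like nuclei of CO 1, CO 2 and KO 1 had median mitochondrial shares of 9.64%, 8.64% and 9.10%, against 4.54%, 4.91% and 2.49% in CO 3, KO 2 and KO 3. This division crosses the groups, and the levels of several members moved with it.

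Nuclei were placed in classes by UMIs of marker genes that include no member, with at least 3 marker UMIs and at least 0.75 of them from one list. This gave 7014 tumor-like nuclei (median 5733 UMIs), 3919 macrophage-like nuclei (1138 UMIs), 264 T/NK-like nuclei (997.5 UMIs), 42 endothelial-like nuclei (1334.5 UMIs) and 31 fibroblast-like nuclei (1197 UMIs). A further 3459 nuclei were mixed and 2764 unassigned, and the leading share of 6905 nuclei lay within 0.1 of the limit. The classes are therefore ranges of a score. According to the paper, telling host stromal or mesenchymal cells apart from TC1 cells would take lineage tracing or copy-number analysis. Tumor-like nuclei may thus include host nuclei, which was not tested. Macrophage-like nuclei carried Mrc1 at 484 CPM and Csf1r at 336 CPM, against 4.23 and 5.61 CPM in tumor-like nuclei. Hmga2, a tumor marker, stood at 5637 CPM in tumor-like and 182 CPM in macrophage-like nuclei. Endothelial-like nuclei carried Cdh5 at 764 CPM, and fibroblast-like nuclei carried Dcn at 853 CPM. Endothelial-like and fibroblast-like nuclei numbered at most 10 per library, so their values are pooled over libraries, cover counting error only and were not tested between groups.

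Mecom was abundant in tumor-like nuclei, low in macrophage-like nuclei and high again in endothelial-like nuclei. In tumor-like nuclei it reached 3870, 4327 and 6241 CPM in CO 1, CO 2 and CO 3 and 4042, 8100 and 6794 CPM in KO 1, KO 2 and KO 3. The CO mean was 4813 ± 1258 CPM and the KO mean 6312 ± 2072 CPM (± SD, n = 3 libraries per group). The levels of the groups overlapped, and the 3 libraries with the high mitochondrial share were the 3 lowest. At least 1 Mecom UMI was found in 91.7% to 99.2% of tumor-like nuclei per library, and in 94.5% to 98.7% when each nucleus was thinned to 1000 UMIs.

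In macrophage-like nuclei Mecom stood at 56.9, 87.2 and 201 CPM in CO and 67.7, 714 and 621 CPM in KO (means 115 ± 75.7 and 468 ± 349 CPM). KO 1 lay among the CO libraries, and the other KO libraries were at least 3 times higher than any CO library. The share of macrophage-like nuclei with a Mecom UMI came to 6.25%, 8.27% and 25.1% in CO and 7.04%, 68.7% and 58.1% in KO. Thinned to 1000 UMIs, which left 2469 nuclei, the shares were 4.74%, 5.82% and 17.2% in CO and 6.32%, 51.8% and 44.6% in KO. T/NK-like nuclei, a lymphocyte class in which Mecom is not known as a marker, gave 9.62%, 5.66% and 28.6% in CO and 4.55%, 70.0% and 71.7% in KO (thinned, over 132 nuclei, 13%, 3.70%, 24.0%, 10.5%, 54.5% and 66.7% in the same order). The macrophage-like share was at or below that of T/NK-like nuclei in CO 1, CO 3, KO 2 and KO 3, against 52, 49, 20 and 46 T/NK-like nuclei. In CO 2 and KO 1 it was above by less than 3 percentage points, against 53 and 44 T/NK-like nuclei. The difference of these shares was not tested, and it does not give the source of the UMIs.

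The T/NK-like levels of Mecom were 88.6, 70.3 and 531 CPM in CO and 42.7, 745 and 981 CPM in KO. As in macrophage-like nuclei, KO 2 and KO 3 were highest, CO 3 came next and the other libraries were low. Slit2, a secreted axon guidance protein and the most abundant of the tumor reference genes used below, was at 89.9, 114 and 248 CPM in macrophage-like nuclei of the CO libraries. In those of KO it was at 125, 792 and 642 CPM, so that KO 2 and KO 3 were its highest libraries too.

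**Figure D1:**
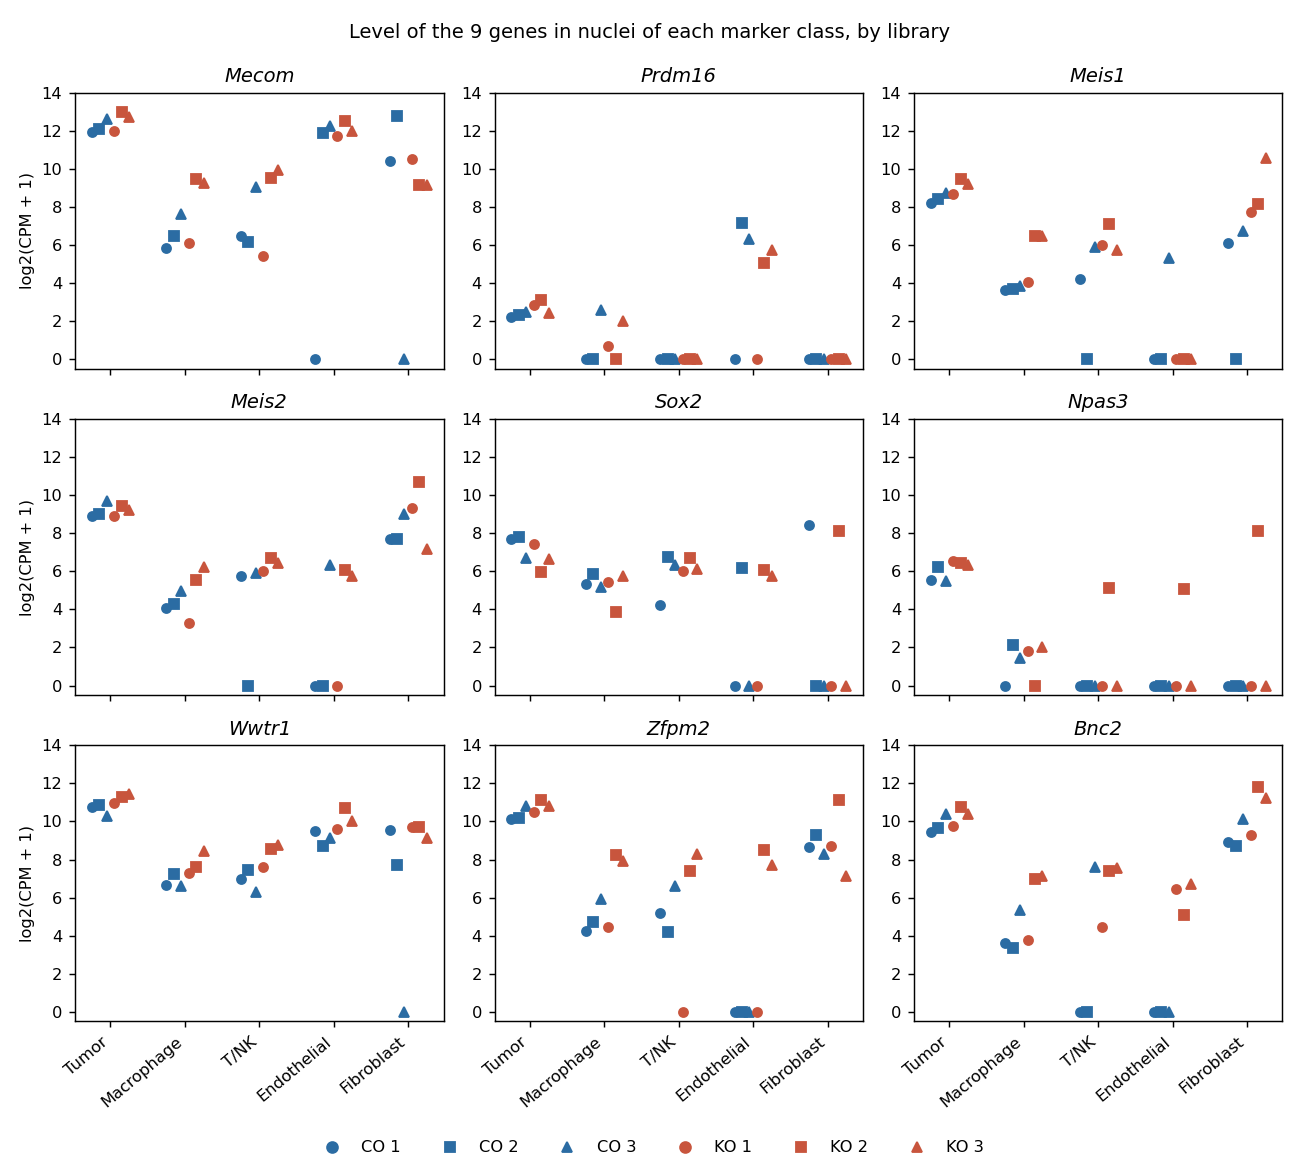
Levels of the 9 genes as log2(CPM + 1) in nuclei of 5 marker classes, with 1 point per library (blue CO, red KO; shape gives the replicate). Mecom was high in tumor and endothelial nuclei, and points at 0 in the endothelial and fibroblast columns rest on 1 to 10 nuclei.

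Prdm16 was near the limit of detection. It had 304 UMIs in the 7014 tumor-like nuclei and 3.66 to 7.73 CPM per library, with a UMI in 3.64% of the nuclei. In macrophage-like nuclei it had 6 UMIs in all, in CO 3, KO 1 and KO 3, and in T/NK-like nuclei 0 UMIs in 264 nuclei.

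The MEIS genes were both tumor-high. Meis1 was measured in tumor-like nuclei at 296, 336 and 423 CPM in CO and 415, 704 and 586 CPM in KO, and Meis2 at 480, 517 and 821 CPM in CO and 471, 702 and 594 CPM in KO. Meis1 in macrophage-like nuclei stood at 11.4, 11.7 and 13.6 CPM in CO and 15.8, 87.0 and 88.5 CPM in KO. Here the lowest KO library lay just above the highest CO library, and the remaining KO libraries were far above both. Meis2 was at 15.9, 18.5 and 30.6 CPM in CO and 8.86, 45.8 and 74.7 CPM in KO, and its groups overlapped. Over all libraries, 76.3% of tumor-like and 3.16% of macrophage-like nuclei had a Meis1 UMI (33.2% and 2.35% thinned), against 4.92% of T/NK-like nuclei. For Meis2 the shares were 81.7%, 2.99% and 5.30%. These pooled shares mix libraries unequally, since KO 2 and KO 3 held 553 of 3919 macrophage-like and 66 of 264 T/NK-like nuclei. Library by library, the macrophage-like share of Meis1 was at or below the T/NK-like share in 4 of 6 libraries (1 of 6 thinned). For Meis2 this held in 3 of 6 libraries (4 of 6 thinned). The T/NK-like shares rest on few nuclei with a UMI, and the difference was not tested.

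Sox2 ran against Mecom, Meis1, Meis2, Zfpm2 and Bnc2 between libraries, but not against Npas3 or Wwtr1. In tumor-like nuclei it stood at 208, 224 and 103 CPM in CO and 170, 62.5 and 99.2 CPM in KO, so the 3 libraries with the high mitochondrial share, the lowest for those 5 genes, were the 3 highest. A Sox2 UMI was found in 45.6% of tumor-like, 5.49% of macrophage-like and 7.95% of T/NK-like nuclei (12.2%, 4.29% and 8.33% thinned), and the macrophage-like share was at or below the T/NK-like share in 5 of 6 libraries. In macrophage-like nuclei Sox2 was at 39.8, 56.2 and 35.7 CPM in CO and 41.8, 13.7 and 53.4 CPM in KO, with no separation of the groups. Npas3 was low, at 45.9, 73.1 and 44.1 CPM in CO and 92.6, 84.2 and 80.8 CPM in KO tumor-like nuclei. Its 3 KO values were above its 3 CO values. It had 11 UMIs in macrophage-like and 1 UMI in T/NK-like nuclei.

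Wwtr1 was at 1762, 1867 and 1247 CPM in CO and 1991, 2539 and 2755 CPM in KO tumor-like nuclei, again with every KO value above every CO value. In macrophage-like nuclei it was at 100.2, 148 and 96.9 CPM in CO and 153, 197 and 351 CPM in KO, without overlap but with CO 2 and KO 1 close together. A Wwtr1 UMI was found in 91.4% of tumor-like, 18.5% of macrophage-like and 20.5% of T/NK-like nuclei (69.4%, 14.1% and 17.4% thinned). By library, the macrophage-like share of 11.2% to 41.7% was at or below the T/NK-like share of 8.16% to 41.3% in 3 of 6 libraries (4 of 6 thinned).

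Zfpm2 and Bnc2 moved like Mecom between libraries in tumor-like and macrophage-like nuclei. In tumor-like nuclei Zfpm2 was at 1101, 1147 and 1775 CPM in CO and 1464, 2275 and 1779 CPM in KO, and Bnc2 at 689, 813 and 1338 CPM in CO and 860.4, 1706 and 1331 CPM in KO. Zfpm2 in macrophage-like nuclei was at 18.2, 25.2 and 59.5 CPM in CO and 20.9, 298 and 244 CPM in KO. Bnc2 was there at 11.4, 9.23 and 39.1 CPM in CO and 12.7, 124 and 142 CPM in KO. For both genes KO 1 lay within the range of the CO libraries and KO 2 and KO 3 lay above it. The macrophage-like shares with a UMI were 7.20% for Zfpm2 and 4.26% for Bnc2 (5.18% and 3.40% thinned), against pooled T/NK-like shares of 8.71% and 8.33% with their unlike mix of libraries. By library, the macrophage-like share was at or below the T/NK-like share in 1 of 6 libraries for Zfpm2 and in 4 of 6 for Bnc2 (2 of 6 each thinned).

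**Figure D2:**
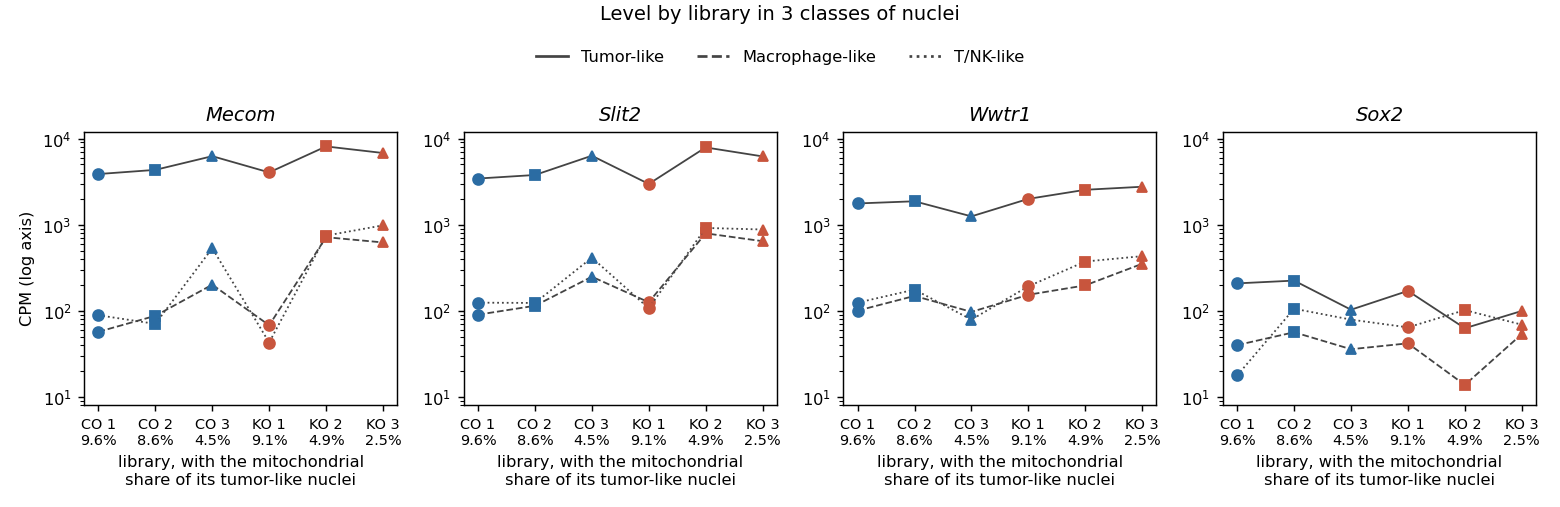
CPM (log axis) of Mecom, the tumor reference gene Slit2, Wwtr1 and Sox2 by library in tumor-like, macrophage-like and T/NK-like nuclei, with the median mitochondrial share of the tumor-like nuclei of each library under its name. Mecom and Slit2 were highest in KO 2 and KO 3 in macrophage-like and T/NK-like nuclei, and Sox2 was highest in tumor-like nuclei of CO 1 and CO 2.

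Outside the tumor class, Mecom was highest in endothelial-like nuclei, at 72.7% of the tumor-like level weighted to the same libraries. Their pooled level was 4616 CPM (471 UMIs, 95% exact Poisson interval 4208 to 5052), and 83.3% of the 42 nuclei had a UMI. By library it was 3746 CPM in CO 2, 4876 CPM in CO 3 and 3438, 5806 and 4060 CPM in KO 1, KO 2 and KO 3. CO 1 held 1 such nucleus and no Mecom UMI. Wwtr1 was at 990 CPM (806 to 1203), with a UMI in 64.3% of nuclei. Prdm16 had 6 UMIs in these nuclei, a level of 58.8 CPM (21.6 to 128), against 5.38 CPM in tumor-like nuclei.

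The remaining members were low in endothelial-like nuclei. Meis1 had 1 UMI (9.80 CPM) and Npas3 had 1 UMI, while Bnc2 and Sox2 had 4 UMIs each (39.2 CPM) and Meis2 had 5. Zfpm2 had 15 UMIs (147 CPM), all of them in KO 2 and KO 3. For comparison, the pooled levels in macrophage-like nuclei were 184 CPM for Mecom, 164 CPM for Wwtr1 and 1.17 CPM for Prdm16.

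Fibroblast-like nuclei showed another order. Bnc2 reached 1137 CPM (56 UMIs, 859 to 1476) in 31 nuclei, 111% of the tumor-like level weighted to the same libraries. Mecom was at 1502 CPM (1180 to 1886) and was found in 41.9% of the nuclei. Meis1, Meis2, Zfpm2 and Wwtr1 were at 325, 447, 507 and 548 CPM, and Prdm16 at 0 UMIs, which allows up to 60.9 CPM. Slit2 was at 1116 CPM in the same nuclei, 23.9% of its tumor-like level.

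How far tumor RNA in the droplets could account for the counts in macrophage-like nuclei was asked by a single ratio per library. The ratio r was the pooled level of 7 tumor reference genes (Slit2, Pde10a, Gpm6b, Igf2bp1, Adamtsl5, Pthlh and Crabp1) in macrophage-like nuclei in percent of that in tumor-like nuclei. Its values were 6.15%, 5.95% and 5.98% in CO and 6.98%, 10.2% and 11.4% in KO (6.03 ± 0.108% and 9.52 ± 2.28%), so every KO library was above every CO library. A gene with no other source than tumor RNA mixed in this ratio has an observed level equal to r times its tumor-like level, called the given level here. The reference genes did not share one ratio. By library Pde10a spanned 3.72% to 5.80% and Slit2 2.62% to 10.4%, while Gpm6b spanned 7.19% to 56.4%, Pthlh 15.5% to 68.9% and Crabp1 60.3% to 143%. Slit2 gave 33724 of the 40385 reference UMIs in the tumor-like nuclei of CO 1 and dominated r in each library.

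Against the given level, 5 members were lower in macrophage-like nuclei, 2 were higher and 2 could not be told from it. Mecom lay at a log2 ratio of observed to given of -1.16 (SE 0.22, adjusted p 9.5e-08, edgeR's quasi-likelihood test with Benjamini-Hochberg adjustment over 11652 genes). Its ratio was below 1 in 6 of 6 libraries, from 0.239 to 0.866. Bnc2 lay at -1.25 (SE 0.24, adjusted p 2.3e-07), Npas3 at -1.33 (SE 0.45, adjusted p 0.0031), Zfpm2 at -0.90 (SE 0.23, adjusted p 0.00011) and Meis2 at -0.74 (SE 0.25, adjusted p 0.0027). The ratio was below 1 in 6 of 6 libraries for Bnc2 and Npas3 too, but in 5 of 6 for Meis2 (highest 1.10) and in 4 of 6 for Zfpm2, which was above its given level in KO 2 and KO 3 (highest 1.28). In the same comparison 95.6% of all genes were called, 0.524% lower and 95.1% higher. As the members were chosen as tumor genes, their place at the low end follows in part from the choice.

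Meis1 was at -0.36 (SE 0.25, adjusted p 0.15) and Wwtr1 at 0.11 (SE 0.21, adjusted p 0.62), neither called. Sox2 was the exception among the abundant members, at 1.98 (SE 0.24, adjusted p 6.8e-17), with observed over given ratios of 2.16 to 5.81 in the 6 libraries. Prdm16, at 1.74 (SE 0.79, adjusted p 0.030), rested on 6 UMIs. Its ratio was below 1 in 3 of 6 libraries, with a median of 0.737 and a highest value of 18.3. Slit2, itself part of r, was at -0.61 (SE 0.21, adjusted p 0.0040).

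The choice of reference genes set which members stood above or below. With Slit2 left out, an alternative added after seeing the data, r rose to 11.6% to 24.0%, Mecom moved to -2.58 and Wwtr1 to -1.29 (adjusted p 1.5e-05, called lower). Under it Sox2 fell to 0.44 (adjusted p 0.058) and Prdm16 to 0.25 (adjusted p 0.74), and neither was called. Mecom, Bnc2, Npas3 and Zfpm2 were called lower in all 14 alternatives. In the macrophage-like nuclei without any UMI of the tumor marker list, the Mecom ratio spanned 0.189 to 0.993 over libraries. There Bnc2 (0.180 to 1.24) and Zfpm2 (0.239 to 1.58) were below 1 in 4 of 6 libraries and Meis2 (0.235 to 1.51) in 5 of 6.

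Without any choice of reference genes, the macrophage-like level of each gene was set in percent of its tumor-like level. The median over 6 libraries was 2.29% for Bnc2, 2.61% for Mecom, 2.77% for Zfpm2, 3.25% for Npas3, 3.65% for Meis2, 3.83% for Meis1, 7.76% for Wwtr1 and 24.9% for Sox2. Among 6425 genes at 20 CPM or more in tumor-like nuclei, 5, 7 and 12 had a lower percentage than Bnc2, Mecom and Zfpm2. For Sox2, 637 genes were lower. The members were chosen as tumor genes, so these low places follow in part from the choice and are a description. The median gene was at 87.4%.

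The percentage moved with the genomic span of a gene. The median was 99.6% for the 612 genes of the shortest spans, 87.7% and 83.4% for the 4523 and 1060 genes of intermediate span and 44.2% for the 230 genes of the longest span class (over 300 kb). Mecom, Bnc2, Zfpm2 and Npas3 belong to the last class, whose lowest 5% of genes began at 3.02%, and Sox2 to the first, whose lowest 5% began at 21.3%. Slit2 (325 kb) was at 4.07% and Crabp1 (8.36 kb) at 112%. Members and reference genes thus differ in span, and the part of span in the ratios above was not tested.

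**Figure D3:**
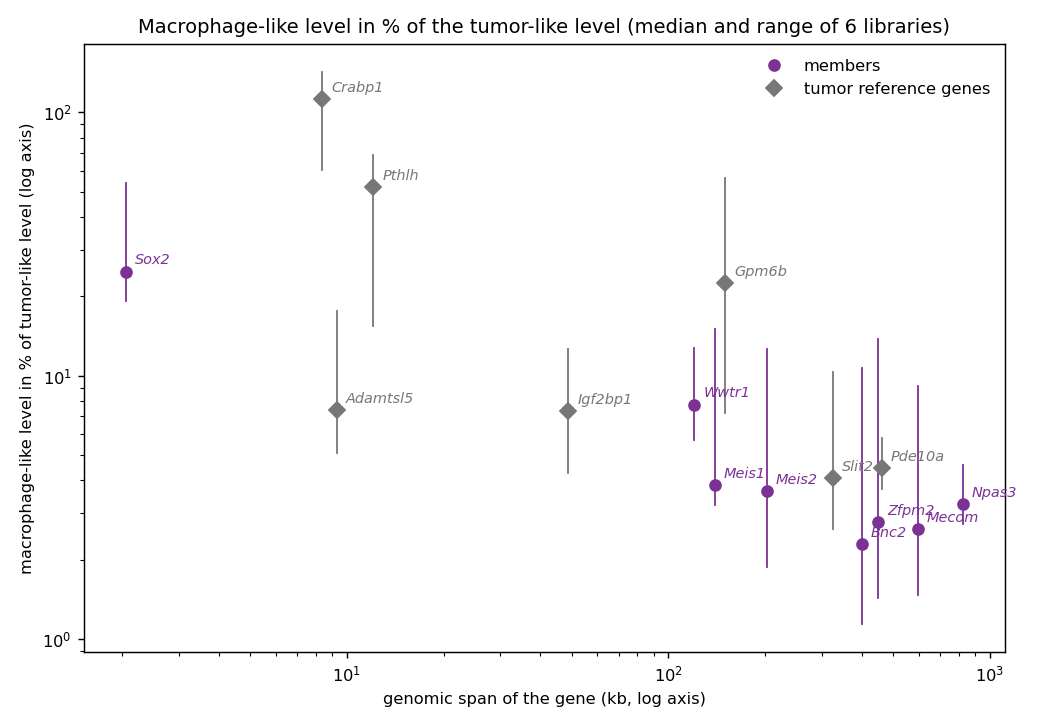
Macrophage-like level in percent of the tumor-like level (log axis) against genomic span in kb (log axis), for 8 members and the 7 tumor reference genes, as the median (point) and range (line) over 6 libraries. The long genes Bnc2, Mecom, Zfpm2 and Npas3 sit at 2.29% to 3.25%, and the short genes Sox2, Pthlh and Crabp1 at 24.9% to 112%.

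T/NK-like nuclei gave a like order. Among 8 members tested there, Mecom was at -1.05 (SE 0.36, adjusted p 0.0046) and Zfpm2 at -1.04 (SE 0.42, adjusted p 0.017), both called lower, against 0.212% of 10871 genes (81.3% called in all). Sox2 was at 2.36 (SE 0.49, adjusted p 3.2e-06) and called higher, as were 81.1% of genes, and Bnc2 (-0.69), Meis2 (-0.15), Meis1 (-0.06), Wwtr1 (0.01) and Npas3 (-1.14) were not called. When the 554 nuclei of the T/NK-like cluster were used instead, Mecom was at 0.01 and Zfpm2 at 0.05, so their calls depended on how the class was drawn.

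In endothelial-like nuclei r was 6.25% and the given level of Mecom 397 CPM, so the observed 4616 CPM was 11.6 times higher. Wwtr1 was 7.57 times and Prdm16 168 times the given level, the latter from 6 UMIs. Slit2 was at 323 CPM against a given 375 CPM, and Bnc2 at 39.2 CPM against a given 82.0 CPM. In a graph cluster of 185 nuclei led by Ldb2, Cdh13, Cyyr1 and other vascular genes, r was higher, at 55.3%, and Mecom was at 5597 CPM (5443 to 5753). There its ratio to the given level was above 1 in 6 of 6 libraries, from 1.5 to 2.13. In a fit of that cluster without CO 1, 93.75% of 11200 genes lay above their given level. The median log2 ratio of all genes was 0.84, and Mecom was at 0.80 (SE 0.15). A ratio above 1 in that cluster was therefore not particular to Mecom. For the 11.6 times in endothelial-like nuclei, no share of all genes is given here. Prdm16 had 19 UMIs in that cluster, 21.1 CPM (12.7 to 33.0), against 5.00 CPM in tumor-like nuclei of the same library mix. In fibroblast-like nuclei r was 47.6%, and Bnc2 was at 2.32 times its given level while Mecom, Wwtr1 and Zfpm2 were at 0.613, 0.601 and 0.715 times theirs. The reference genes Pde10a, Gpm6b and Crabp1 were higher there (974, 122 and 183 CPM) than in tumor-like nuclei (267, 39.9 and 71.9 CPM). Slit2, Igf2bp1 and Pthlh were lower. In this class r can therefore not be taken as a measure of tumor RNA alone, which limits these ratios. These values for the small classes are descriptions.

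The study asked what loss of host MCT2 does to tumors and their macrophages. It named Mecom, Bnc2, Zfpm2 and the reference gene Slit2 for macrophages of these libraries, and Mecom, Bnc2 and Zfpm2 for T/NK cells too. Their differences here are therefore not independent evidence. In KO macrophages it reported Mecom and Slit2 as strongly upregulated, by a Wilcoxon test with nuclei as units. It also ran a pseudobulk analysis with samples as units. Libraries are the units of the tests here. In tumor-like nuclei no member and no gene was called between KO and CO (0% of 12734 genes, against 860 at an unadjusted p under 0.05 and 17 called by DESeq2). The members' adjusted p lay between 0.59 and 0.95 (edgeR's quasi-likelihood test with Benjamini-Hochberg adjustment). Log2 fold changes of KO over CO were 0.47 (SE 0.39) for Mecom, 0.65 (SE 0.31) for Prdm16, 0.77 (SE 0.27) for Meis1 and 0.04 (SE 0.28) for Meis2. They were -0.64 (SE 0.41) for Sox2, 0.72 (SE 0.22) for Npas3, 0.65 (SE 0.28) for Wwtr1, 0.54 (SE 0.31) for Zfpm2 and 0.54 (SE 0.37) for Bnc2. The groups did not overlap for 2 of 9 members, Npas3 and Wwtr1, against 12.7% of all genes.

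In macrophage-like nuclei the estimates were larger and their errors too. Mecom was at 2.07 (SE 0.75), Bnc2 at 2.27 (SE 0.85), Zfpm2 at 2.47 (SE 0.83), Meis1 at 2.27 (SE 0.64), Meis2 at 0.95 (SE 0.68), Wwtr1 at 1.05 (SE 0.34) and Sox2 at -0.13 (SE 0.36). The adjusted p was 0.91 for 6 of these genes and 0.97 for Sox2, and Prdm16 and Npas3 were below the filter on low counts. No gene was called (0% of 8931, against 428 at an unadjusted p under 0.05 and 4 called by DESeq2). Slit2 was at 1.83 (SE 0.62), within the range of the members. The groups did not overlap for Meis1 and Wwtr1, 2 of the 7 members tested, against 11.2% of genes.

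KO 1 decided these counts. Without it 2511 genes (19.4%) were called in tumor-like nuclei, Meis1 among them at 0.98 (SE 0.20, adjusted p 0.028), and 1320 genes (15.0%) in macrophage-like nuclei. There Mecom was at 2.64 (SE 0.33, adjusted p 0.00028), Bnc2 at 3.01, Zfpm2 at 3.11, Meis1 at 2.89, Meis2 at 1.69 and Wwtr1 at 1.34, all called, and Slit2 at 2.33 was called as well. KO 1 shared its high mitochondrial share with CO 1 and CO 2. With that share as a covariate, added after seeing the data, the macrophage-like estimates shrank to 0.84 (SE 0.42) for Mecom, 0.92 for Bnc2, 1.07 for Zfpm2, 1.30 for Meis1 and 0.92 for Slit2, and no member was called. The tumor-like estimates became 0.18 for Mecom and -0.28 for Sox2, while Wwtr1 stayed at 0.64 and Npas3 at 0.82. In classes drawn from clusters the macrophage-like Mecom estimate was 0.83 (SE 0.65).

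**Figure D4:**
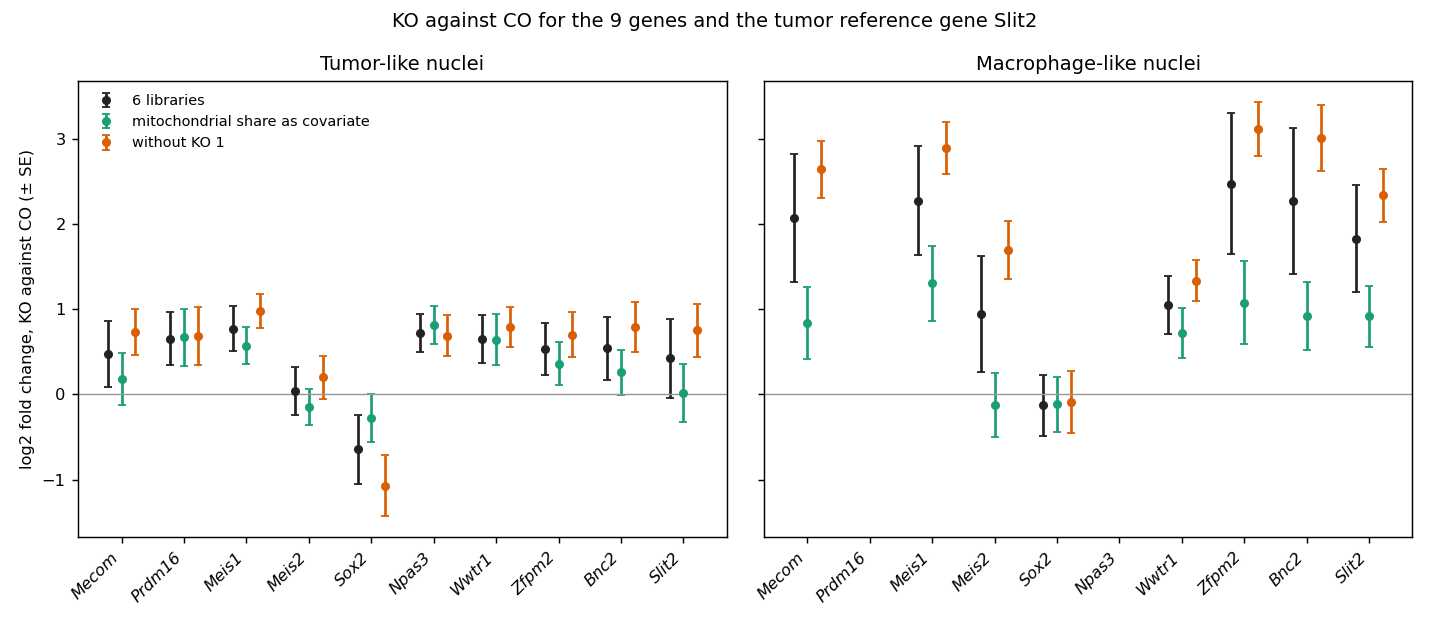
Log2 fold change of KO over CO (± SE) for the 9 genes and Slit2 in tumor-like and macrophage-like nuclei, from all 6 libraries, with the mitochondrial share as covariate and without KO 1. In macrophage-like nuclei Mecom stood at 2.07, 0.84 and 2.64 under the 3 fits, and Prdm16 and Npas3 had too few counts there.

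Whether the KO to CO difference was unlike in the classes was tested by an interaction term, with the library as a blocking factor. It was called for 2 of 12344 genes (0.0162%) and for no member. Mecom was at 1.31 (SE 0.50, adjusted p 0.62), Bnc2 at 1.55 (SE 0.57), Zfpm2 at 1.59 (SE 0.61) and Meis1 at 1.38 (SE 0.46). Without KO 1 the term was called for 102 of 12428 genes (0.821%). The estimates of that fit, listed whether or not they were called, were 2.06 for Mecom, 2.33 for Bnc2 and 2.51 for Zfpm2. They were 2.04 for Meis1, 1.58 for Meis2 and 1.70 for Slit2. When the observed level was divided by the given level, the KO libraries exceeded the CO libraries by a log2 of 0.65 for Mecom, 0.83 for Bnc2, 0.84 for Zfpm2, 0.72 for Meis1 and 0.64 for Slit2, and r itself by 0.63. For Wwtr1 and Sox2 that difference was -0.26 and -0.36.

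Among tumor-like nuclei the members were compared between nuclei positive for a state list and the rest, with the library as a blocking factor. Cycling nuclei (23.4% to 36.4% per library, at least 2 UMIs of Mki67, Top2a and similar genes after thinning) had Mecom at a log2 fold change of 0.00 (SE 0.02). No member passed both thresholds there, against 3.34% of 11723 genes (2.66% higher and 0.682% lower). Meis1 and Wwtr1 were both 0.24 higher (SE 0.03, in 6 of 6 libraries each), under the size threshold of 0.58. Nuclei positive for interferon response genes (6.12% to 14.7%) differed in no member past both thresholds, against 1.85% of 11182 genes (1.8% higher and 0.0537% lower), and Wwtr1 was at -0.16 (SE 0.04, adjusted p 0.021).

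Nuclei positive for Pde10a, Col12a1 and Gpm6b (3.75% to 12.6% per library) were lower in Sox2. Its levels in positive nuclei were 154, 146 and 59.3 CPM in CO and 102, 31.5 and 75.1 CPM in KO, against 210, 229 and 108 CPM in CO and 173, 65.2 and 101 CPM in KO in the other nuclei. Every library showed the same direction. Sox2 fell by 0.68 on the log2 scale (-0.68, SE 0.09, adjusted p 1.2e-06, edgeR's quasi-likelihood test) and was the only 1 of 9 members called, against 3.16% of 11061 genes (2.43% higher and 0.723% lower). Bnc2 was at 0.34 (SE 0.06, adjusted p 6e-05) and Npas3 at -0.51 (SE 0.13, adjusted p 0.0098), both under the size threshold (Npas3 passed it without KO 1, at -0.64), and Mecom at 0.00 (SE 0.05).

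**Figure D5:**
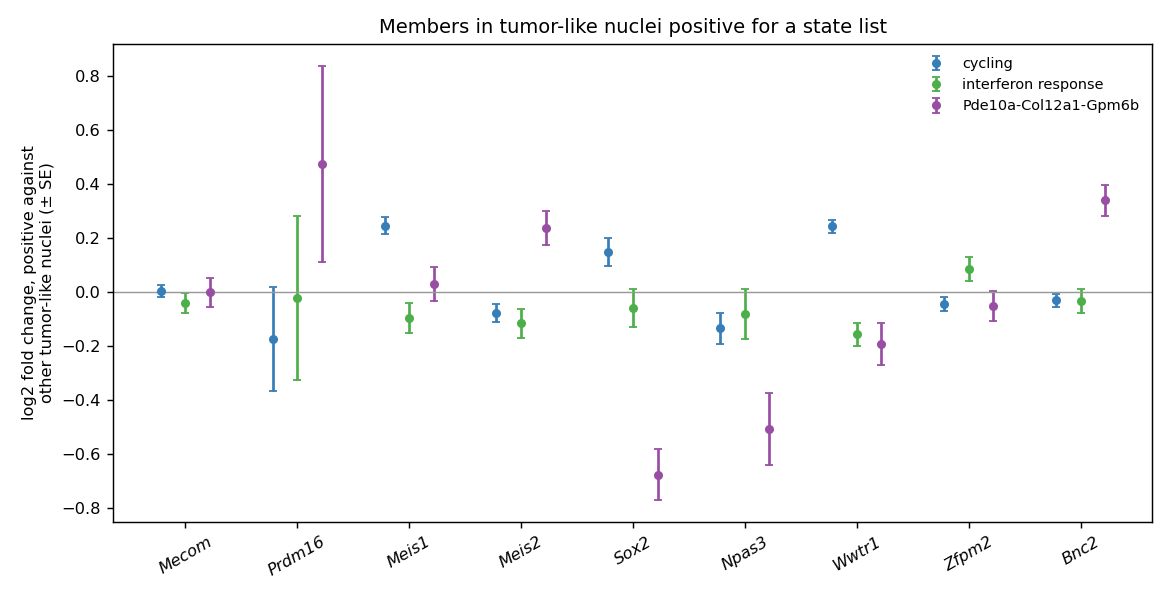
Log2 fold change (± SE) of each member in tumor-like nuclei positive for cycling, interferon response or Pde10a-Col12a1-Gpm6b genes against the other tumor-like nuclei of the same library. Sox2 in the last state, at -0.68, was the value past both thresholds, and Mecom lay at 0 within its error for cycling and Pde10a-Col12a1-Gpm6b nuclei.

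Graph clusters were formed from all kept nuclei without the members, so those named tumor-like are not parts of the tumor-like class above. Levels differed more between these clusters than between the states, which compare other sets of nuclei. Over 9 clusters of at least 100 nuclei Mecom ranged from 1871 CPM in a cluster of 472 nuclei led by Hist1h2bc, Gadd45b, Jun, Ier2 and Egr1 to 7946 CPM in a cluster of 1518 nuclei led by Slco5a1, Dach1 and Dkk2, of which 62.5% came from KO 2. The former held the lowest level of Mecom, Prdm16, Meis1, Meis2, Npas3, Zfpm2 and Bnc2 as well, and the highest of Sox2 (286 CPM). Sox2 was lowest, at 40.3 CPM, in the cluster led by Gpm6b, Frmd5 and Pde10a, where Meis2 (881 CPM) and Bnc2 (1829 CPM) were highest. These clusters hold unequal shares of the libraries, and their levels are descriptions.

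Genes with the most similar pattern were found by the correlation of log2(CPM + 1) over 30 sums (5 classes in 6 libraries), among 9350 genes. The sums of a library share its depth and free RNA, so the correlations describe these sums. For Mecom these were Nbea (Pearson's r 0.95), Myo1d (0.86), Trio (0.85), Usp6nl (0.82) and Fgfr1 (0.78). For Prdm16 they were Mmrn2 (0.92), an endothelial marker, and Sgip1, for Meis1 Eps8 and Aff2, and for Meis2 Col5a2 and Prrx1 (0.89 and 0.88). Zfpm2 was closest to Cacnb2 (0.94) and Ddr2, Bnc2 to Ank3 (0.91) and Rbms3, and Npas3 to Arsj (0.90) and Ebf4. Nbea was also among the genes nearest to Wwtr1 (0.73). For Sox2 the closest were BC052040 and Cab39l (both 0.89). Prdm16 itself was under the limit on low values set for the compared genes. Without the small endothelial and fibroblast sums (18 sums), the values were 0.43 and -0.60 for these neighbours of Sox2, 0.96 for Nbea and 0.57 for Usp6nl with Mecom, 0.55 for Sgip1 with Prdm16 and 0.66 for Eps8 with Meis1.

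Related regulators were read from 6 lists. In macrophage-like nuclei 16 of 17 PR-domain genes and EVI1 partners tested were called above the given level, as were 95.1% of all genes. Runx1, a hematopoietic factor, was among them at 4.91. Of the MEIS partners 6 of 12 were called above it, and Pknox2 was called lower at -1.76 (SE 0.73). Of the Hippo genes around Wwtr1, 17 of 21 were called above the given level, and Yap1 was at 0.46 (not called). Among the TEAD genes, DNA-binding partners of Wwtr1, Tead1 was called lower at -0.63 (SE 0.23) and Tead2 higher at 1.78. Tead3 at -1.29 and Tead4 at 0.40 were not called. Of the SOX and bHLH-PAS relatives 8 of 10 were called above the given level, and of the GATA and FOG genes 2 of 3. Of the lung and mesenchymal lineage factors 14 of 16 were, led by Zeb2 at 7.36. The medians were 3.43, 1.45, 2.56, 2.48, 1.05 and 1.97 in that order, against 3.71 for all genes.

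Between KO and CO no gene of the 6 lists was called in either class. In tumor-like nuclei the extremes were Prdm8 at -0.50 and Prdm1 at 0.58, Hoxa7 at -0.78 and Hoxb5 at 1.06, Amot at -0.41 and Ccn2 at 0.97, Sox4 at -0.65 and Sox6 at 1.37, Gata3 at -0.38 and Gata6 at 0.47, and Tbx2 at -1.95 and Foxp2 at 0.58. Their adjusted p lay between 0.59 and 0.69. In macrophage-like nuclei, with adjusted p of 0.91 to 0.96, they were Prdm15 at -0.63 and Prdm4 at 1.15, Hoxb4 at -0.58 as the lowest of its list, Vgll4 at -0.59 and Tead1 at 1.10, Sox4 at -0.33 and Sox5 at 0.88, and Twist1 at -0.14 and Nfib at 1.54. List medians lay between -0.03 and 0.26 in tumor-like nuclei (all genes -0.02) and between -0.06 and 0.64 in macrophage-like nuclei (all genes 0.01), where no GATA or FOG gene passed the filter. In the tumor states, Sox12 (-0.61) and Tbx2 (-0.72) fell in cycling nuclei. In Pde10a-Col12a1-Gpm6b nuclei Ankrd1 (-1.40) and Tead4 (-0.68) fell, and Arnt2 (0.63), Prrx1 (0.63) and Snai1 (0.89) rose.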

How the data were processed

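RNA of nuclei from 6 tumors was counted with droplet-based chemistry. The authors aligned reads to GRCm38 with Cell Ranger (3.0.2 in the methods, 3.1.0 in the file headers) and deposited UMI counts per gene and barcode. The counts are whole numbers, so the free-RNA correction named in the methods is not visible in them. Some samples received extra washes, and the labels do not say which. Whether intronic reads were counted is not given in the sources used here.

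Nuclei with 100 to 7500 genes and under 20% mitochondrial counts were kept (18014). Scrublet (scanpy 1.11.5) called 20 doublets by its automatic threshold, too few, so the 521 nuclei with the highest scores (0.8% per 1000 barcodes) were removed. Members and gene lists were chosen with earlier results of these data known. Counts were summed per class and library, and libraries were the replicates. The labels give separate samples but not separate animals, so p-values measure the spread between these samples. Replicates of a group differed by 1.60 to 138 chi-square units per degree of freedom, so none was a copy. Sums were tested with edgeR 4.0.16 (R 4.3.3; TMM, filterByExpr, quasi-likelihood F-test), and a gene was called at an absolute log2 fold change of at least 0.58 and a Benjamini-Hochberg adjusted p of at most 0.05. SE is the log2 fold change divided by the root of F. CPM are UMIs scaled to the same class total. In the test against tumor RNA, log r entered as an offset and was taken as known. Clusters were made with leidenalg 0.10.2 after leaving out the members. State tests left out nuclei under 1000 UMIs (18 to 245 tumor-like nuclei per library). The Msln-Pthlh-Crabp1 state, with as few as 3 positive nuclei in a library, was not tested.

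On data simulated for the comparisons, the test recovered 22% of 2-fold and 77% of 4-fold changes in tumor-like nuclei (12734 genes), 15% and 83% in macrophage-like nuclei (8931 genes) and 52% and 91% against the given level (11652 genes). All 9 members are named. Of related lists, called genes are named (the leading ones where most are called), and otherwise the largest and smallest fold changes. The nearest genes are the 5 of highest correlation for Mecom and the 2 for each other member, among genes at 20 CPM or more in at least 6 sums. Genes such as Runx1, Zeb2 and Yap1 were named after their values were seen. Alternatives were DESeq2 1.42.0, no TMM, no filter, a replicate block, leaving out each library, stricter nucleus and class limits, no doublet removal, classes from clusters and other choices of r. The mitochondrial covariate, the reference genes without Slit2 and the T/NK-like and endothelial-like clusters as classes were added after seeing the data. Some genes that these rules name are not reported here.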

Additional observations from a re-analysis of the deposited data

How the results depend on the processing

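Of the 79 alternative counts of called genes, 64 stayed within 1.5 times the main count, and of the 669 alternative values of members 606 kept direction and side of the threshold. In tumor-like nuclei DESeq2 called 17 genes in place of 0, and leaving out 1 library gave 0 to 2511. In macrophage-like nuclei DESeq2 called 4, no filter on low counts 15 and the mitochondrial covariate 4, and leaving out 1 library gave 0 to 1320. The interaction was called for 1 gene with the stricter nucleus filter, 36 with the stricter class rule and 1 with classes from clusters, and for 0 to 102 without 1 library. Interferon response gave 110 genes after thinning.

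The direction of 37 alternative values of members changed, as follows. For Meis2 the KO to CO value was -0.041 without TMM, -0.15 with the mitochondrial covariate and -0.040 with the stricter nucleus filter in tumor-like nuclei (-0.15 to 0.30 without 1 library), and -0.12 with the covariate in macrophage-like nuclei (-0.32 to 1.69 without 1 library). For Sox2 in macrophage-like nuclei it was -0.39 to 0.082 without 1 library. In the interaction, classes from clusters gave 0.65 for Prdm16 and -0.10 for Wwtr1, and the stricter class rule 0.48 for Npas3. Without 1 library the interaction spanned -1.70 to 5.26 for Prdm16, -0.35 to 1.58 for Meis2, -0.048 to 1.00 for Sox2 and -0.68 to 0.81 for Npas3. Against the given level in macrophage-like nuclei, Meis1 was at 0.022 with the stricter class rule, and Wwtr1 at -0.15 with the median ratio and -1.29 without Slit2. In the T/NK-like cluster Mecom was at 0.0063, Meis1 at 0.44, Meis2 at 0.51, Zfpm2 at 0.051 and Bnc2 at 0.32. In cycling nuclei Mecom was at -0.014 after thinning and -0.0056 to 0.0079 without 1 library. In interferon-positive nuclei Prdm16 spanned -0.21 to 0.11 and Npas3 -0.15 to 0.0059 without 1 library. In Pde10a-Col12a1-Gpm6b nuclei Mecom was at 0.031 with at least 3 UMIs and Meis1 at -0.0092 after thinning, and without 1 library they spanned -0.041 to 0.025 and -0.024 to 0.047. The cause of these changes was not tested.

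Samples sharing a replicate number did not deviate together in each pair (correlations of 0.54, -0.25 and 0.40 in tumor-like and 0.33, -0.23 and 0.24 in macrophage-like nuclei), so the numbers were not taken as pairs. With a replicate block 0 genes were called in either class, with Mecom at 0.43 in tumor-like and 1.71 in macrophage-like nuclei. With 3 libraries per group, changes of 2-fold were mostly missed in simulated data, and members with few UMIs in macrophage-like nuclei (Prdm16, Npas3) could not be compared between groups.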
